A study of Homo sapiens with 6 samples.

Results

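The genes described here are 32 genes of cholesterol and fatty acid synthesis. They comprise 7 enzymes of the mevalonate steps, 11 enzymes that take the path on to cholesterol, 6 genes of SREBP control and sterol transfer, and 8 genes of fatty acid synthesis. They were chosen by gene symbol, as members of these pathways, from the 26364 symbols of the expression table. One of them, the sterol desaturase SC5DL, was listed under its current symbol SC5D.

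RNA-seq was performed on A673/TR/shEF cells, a derivative of the Ewing sarcoma line A673 that carries a doxycycline-inducible short hairpin RNA against the fusion oncogene EWSR1::FLI1. All 6 libraries came from these engineered cells, grown in DMEM with fetal bovine serum, blasticidin and zeocin. The 3 EWSR1::FLI1 high libraries came from cells without doxycycline, and the 3 EWSR1::FLI1 low libraries from cells given doxycycline at 1 µg/mL for 72 h. No cells given doxycycline without the hairpin were among the samples, so exposure to doxycycline and loss of the fusion transcript cannot be told apart. Replicates were numbered as experiments in the sample titles and described as clones in the series text, so the p-values measure only the spread between these libraries.

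Cells make cholesterol from acetyl-CoA through mevalonate, squalene and a series of sterol intermediates, and they make fatty acids from the same acetyl-CoA. Both pathways are controlled at transcription by the sterol regulatory element-binding proteins SREBP1 and SREBP2, encoded by SREBF1 and SREBF2. When sterols are scarce, SCAP escorts the SREBPs to the Golgi for cleavage. When sterols are plentiful, INSIG1 and INSIG2 hold them in the endoplasmic reticulum. INSIG1 and HMGCS1 are themselves well-known SREBP targets.

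The libraries held between 6980361 and 16658933 reads on genes, and each of the 32 genes had between 32 and 6352 reads in each library. Values are FPKM, given as mean ± SD over the 3 libraries of a group. They are fragments scaled by gene length and by a size factor of the library. The factors recovered from the table ran from 0.829 to 1.67 and were not proportional to the reads on genes. FLI1, whose 3' part is in the fusion transcript, was at 12.7 ± 1.43 FPKM in EWSR1::FLI1 high and 3.63 ± 0.696 in EWSR1::FLI1 low libraries, and the groups did not overlap. The 7 Ewing sarcoma marker genes summed to between 594 and 614 FPKM in the high libraries and between 165 and 197 in the low libraries. Of 12 markers of other cell types, 10 had a mean under 0.5 FPKM, none was at 0 in every library, and their sum was between 2.31 and 3.62 FPKM in high and between 4.88 and 6.14 in low libraries. The exceptions were EPCAM and FABP4, and the part of such cells in the results was not tested. In bulk RNA, fewer cells that express a gene and less of its RNA per cell cannot be told apart.

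One library stood apart for these genes. EWSR1::FLI1 high replicate 1 held the highest value of its group for 30 of the 32 genes, whereas it held the highest value for 26.3% of all genes tested. Across the table, the low libraries differed more from each other than the high libraries did. The chi-square per degree of freedom between pairs of recovered read counts was 20.2 to 31.5 in low and 4.25 to 6.27 in high libraries. Results without high replicate 1 are given beside the genes with the largest differences, and for the other genes that it moves they are gathered further on.

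The 32 lipid synthesis transcripts differed between EWSR1::FLI1 low and high cells in both directions, and few of the differences stood out from the spread between libraries. INSIG1, ACSS2, HMGCS1 and STARD4 had the largest positive differences, with 1.68 to 3.77 times as much FPKM in EWSR1::FLI1 low as in EWSR1::FLI1 high cells. PMVK, EBP and ELOVL6 had the largest negative differences, with 0.552 to 0.600 times as much. The transcripts of the regulators SREBF1 and SREBF2 differed by -0.03 and -0.03 on the log2 scale, and those of the enzymes FASN and ACACA by -0.31 and 0.01.

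Each gene was tested with limma on log2(FPKM + 1), a scale that understates the change of low genes, and p-values were adjusted over the 15504 genes with a mean of at least 0.5 FPKM. All 32 lipid synthesis genes passed that filter. None of them had an adjusted p under 0.01, against 7.88% of all genes tested, of which 4.51% were higher and 3.37% lower in EWSR1::FLI1 low cells. At an adjusted p under 0.05 there were 4 of 32, INSIG1 and ACSS2 on the higher side and EBP and ELOVL6 on the lower, against 19.8% of all genes (9.87% higher and 9.91% lower). At an unadjusted p under 0.05 there were 9 of 32, against 34.3%. With limma-voom on the read counts recovered from the table, 1 of 32 (INSIG1) passed an adjusted p of 0.01, against 11.2% of all genes, and with sample quality weights 7 of 32 did, against 30.6%. The groups did not overlap for 8 of 32 genes, against 41.1% of all genes. Of the 8, HMGCS1, INSIG1, INSIG2 and ACSS2 were above in the low libraries (17.5% of all genes), and PMVK, HSD17B7, EBP and ELOVL6 were below (23.6%).

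Log2 fold changes were above 0 for 19 of the 32 genes, against 45.2% of all genes, and their median was 0.19, against -0.05 over all genes. With median-ratio scaling of these already scaled FPKM the count was 23 of 32 and with quantile normalization 22. These are counts over genes chosen together and are given as a description. The calls depended on single libraries. Without EWSR1::FLI1 low replicate 1, INSIG1 alone passed an adjusted p of 0.01 (14.0% of all genes did), and 10 of 32 passed 0.05 (28.7% of all genes). Fewer genes passed 0.05 over the whole table when a high library was left out. Without EWSR1::FLI1 high replicate 2 or 3, none of the 32 passed 0.05, against 8.90% and 8.96% of all genes, and without high replicate 1 there were 3 (HMGCS1, INSIG1 and ACSS2), against 9.93%.

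**Figure D1:**
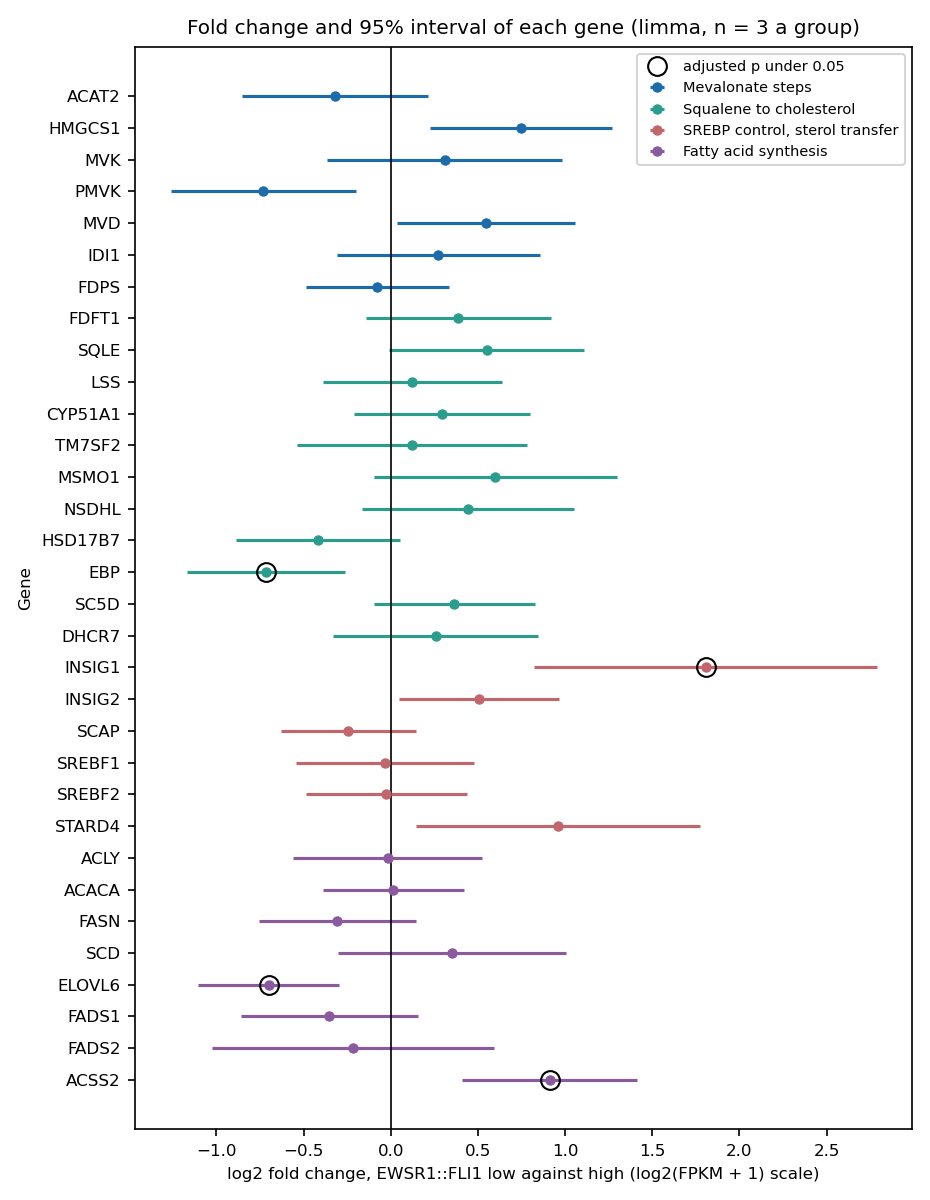
Each point is the log2 fold change of 1 lipid synthesis gene in EWSR1::FLI1 low against high libraries (x axis, log2(FPKM + 1) scale), with its 95% interval from limma, coloured by role; open circles mark an adjusted p under 0.05. The 4 circled genes are INSIG1 and ACSS2 to the right of 0 and EBP and ELOVL6 to the left, and most other intervals cross 0.

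To show the promoters of the 7 genes named above for their differences, the 200 bases before the transcription start were taken from RefSeq (GRCh38.p14), where 28 of the 32 genes had a promoter window. These coordinates are of another build than the expression table, which used GRCh37. Where RefSeq gave several starts, the first listed was used. The windows shown are INSIG1 (chr7:155297678-155297877, plus strand), HMGCS1 (chr5:43313413-43313612, minus strand), STARD4 (chr5:111512536-111512735, minus strand), ACSS2 (chr20:34874789-34874988, plus strand), EBP (chrX:48521608-48521807, plus strand), ELOVL6 (chr4:110198616-110198815, minus strand) and PMVK (chr1:154936720-154936919, minus strand). SREBF2 (chr22:41832905-41833104, plus strand) is added because it was the only one of the 28 with the sterol regulatory element searched for. Each runs 5′ to 3′ on the strand of the gene, and capitals mark CCAAT or its reverse complement, the box bound by NF-Y, a common partner of the SREBPs, and TCACNCCAC, a form of the sterol regulatory element.
INSIG1: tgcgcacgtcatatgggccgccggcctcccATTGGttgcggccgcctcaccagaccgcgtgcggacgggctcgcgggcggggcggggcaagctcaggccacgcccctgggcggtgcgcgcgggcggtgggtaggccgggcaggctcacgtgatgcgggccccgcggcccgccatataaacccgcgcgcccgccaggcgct
HMGCS1: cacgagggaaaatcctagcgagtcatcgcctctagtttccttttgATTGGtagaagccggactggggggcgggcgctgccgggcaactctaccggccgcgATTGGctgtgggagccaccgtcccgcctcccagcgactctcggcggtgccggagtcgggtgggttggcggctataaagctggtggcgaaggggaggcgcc
STARD4: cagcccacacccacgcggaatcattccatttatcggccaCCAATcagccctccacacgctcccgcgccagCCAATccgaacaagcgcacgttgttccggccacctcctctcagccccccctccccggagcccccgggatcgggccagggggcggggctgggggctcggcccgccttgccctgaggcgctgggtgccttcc
ACSS2: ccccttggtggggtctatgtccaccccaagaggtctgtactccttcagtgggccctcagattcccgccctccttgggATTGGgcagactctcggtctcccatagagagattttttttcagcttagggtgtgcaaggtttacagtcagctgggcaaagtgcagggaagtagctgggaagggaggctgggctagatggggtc
EBP: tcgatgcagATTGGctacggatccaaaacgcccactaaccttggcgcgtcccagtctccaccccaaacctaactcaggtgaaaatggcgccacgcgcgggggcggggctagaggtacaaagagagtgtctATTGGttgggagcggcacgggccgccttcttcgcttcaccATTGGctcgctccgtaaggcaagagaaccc
ELOVL6: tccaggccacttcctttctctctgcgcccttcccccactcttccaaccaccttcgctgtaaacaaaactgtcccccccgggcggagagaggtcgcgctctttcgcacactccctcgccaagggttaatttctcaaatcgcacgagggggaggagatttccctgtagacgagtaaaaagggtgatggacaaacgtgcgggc
PMVK: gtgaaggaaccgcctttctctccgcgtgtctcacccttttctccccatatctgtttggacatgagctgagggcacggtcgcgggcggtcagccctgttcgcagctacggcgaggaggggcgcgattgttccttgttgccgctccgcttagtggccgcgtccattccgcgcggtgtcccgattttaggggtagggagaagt
SREBF2: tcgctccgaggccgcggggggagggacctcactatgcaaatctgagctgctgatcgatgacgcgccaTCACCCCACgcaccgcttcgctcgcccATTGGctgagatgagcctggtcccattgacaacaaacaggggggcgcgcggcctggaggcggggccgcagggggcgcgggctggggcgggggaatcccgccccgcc

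The CCAAT box, read on either strand, lay in the window from 250 bases before to 50 bases after the start of 21 of the 28 genes, or 75.0%, against 39.7% of the 27305 genes with such a window. Counted by window rather than by gene, it was in 25 of 39 windows of these genes (64.1%) and in 34.6% of all 35116. These backgrounds were not limited to genes expressed in these cells, and a share over expressed genes was not taken. In the sequences above, EBP holds the box 3 times, with first bases 191, 70 and 30 bases before the start. HMGCS1 holds it at 155 and 100 bases and STARD4 at 161 and 130 bases before the start. INSIG1 and ACSS2 hold 1 copy each, and ELOVL6 and PMVK none. The box was thus found both in genes with more FPKM in EWSR1::FLI1 low cells, such as INSIG1, and in EBP, which had less. The 7 genes without it were PMVK, CYP51A1, INSIG2, SCAP, SREBF1, ELOVL6 and FADS1.

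TCACNCCAC was found on either strand in 1 of the 28 genes, SREBF2, 133 bases before the start, against 1.39% of all genes. GGAAGGAA, a pair of ETS core motifs of the kind that EWSR1::FLI1 is known to bind in repeats, was also found in 1 of the 28, the desaturase gene SC5D, against 4.50% of all genes. None of the searched motifs contains another. A match is a description of the letters and not a binding site. ACAT2, FDFT1, SQLE and FASN were not matched to a promoter window.

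SREBP control and sterol transfer held the largest difference of the 32 genes. INSIG1 (ENSG00000186480, GRCh37 chr7:155089486-155101945), which retains SCAP and the SREBPs in the endoplasmic reticulum, had 20.4, 10.1 and 7.58 FPKM in replicates 1, 2 and 3 of the high group. In those of the low group it had 25.1, 76.3 and 42.2 FPKM. All low libraries lay above all high libraries, but low replicate 1 was close to high replicate 1. The means were 12.7 ± 6.80 and 47.8 ± 26.1 FPKM, a ratio of 3.77, and the log2 fold change was 1.81 ± 0.43 (standard error, as for all log2 fold changes given with ±) with a limma adjusted p of 0.0206. It was 2.18 (limma adjusted p = 0.012) without high replicate 1 and 1.41 (adjusted p = 0.0453) without low replicate 2, and the adjusted p reached 0.0901 without high replicate 3.

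INSIG2, the second retention protein, was at 11.7, 9.91 and 8.85 FPKM in the high and 11.8, 17.7 and 15.3 FPKM in the low libraries. The groups were separate only by the gap between 11.7 and 11.8 FPKM in both replicates numbered 1, and the log2 fold change of 0.51 ± 0.20 had a limma adjusted p of 0.113. The ratio of INSIG1 to INSIG2 FPKM was 1.74, 1.02 and 0.857 in high and 2.12, 4.30 and 2.75 in low libraries, with every low value above every high value. The difference on the log2 scale was 1.35, and the exact permutation test gave p = 0.1, the smallest that 3 against 3 allows.

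STARD4, a carrier that moves cholesterol between membranes, was at 17.2, 10.2 and 6.95 FPKM in the high and 16.4, 35.1 and 17.9 FPKM in the low libraries. Low replicate 1 lay below high replicate 1, so the groups overlapped. STARD4 had a log2 fold change of 0.96 ± 0.36 with a limma adjusted p of 0.0942, and leaving out 1 library gave between 0.63 (without low replicate 2, adjusted p = 0.241) and 1.27 (without high replicate 1, adjusted p = 0.0534). The highest adjusted p was 0.305, without high replicate 3.

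SREBF2, which encodes the SREBP that mainly drives cholesterol genes, was at 11.3, 6.81 and 8.08 FPKM in high and 8.55, 8.98 and 7.65 FPKM in low libraries. SREBF1, whose product mainly drives fatty acid genes, was at 4.82, 3.46 and 2.79 FPKM in high and 4.63, 3.51 and 2.60 FPKM in low libraries. The 95% interval of the log2 fold change was -0.49 to 0.43 for SREBF2 and -0.55 to 0.48 for SREBF1, so the data allow changes of either sign within these bounds. The ratio of SREBF1 to SREBF2 FPKM was 0.427, 0.508 and 0.345 in high and 0.542, 0.391 and 0.340 in low libraries, and the groups overlapped (exact permutation test, two-sided p = 0.9). SCAP, the escort protein, was at 3.79 ± 0.473 and 3.06 ± 0.536 FPKM, with a log2 fold change of -0.24 ± 0.17 (limma adjusted p = 0.357).

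**Figure D2:**
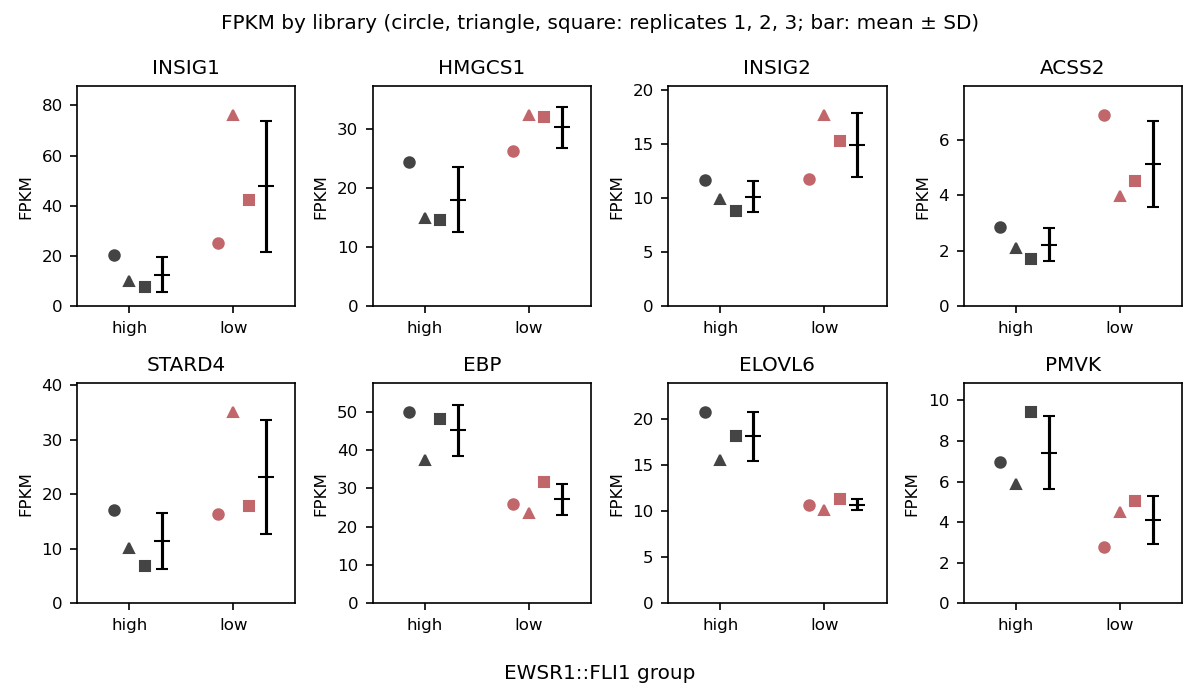
FPKM (y axis, from 0) of 8 genes in the 3 EWSR1::FLI1 high (grey) and 3 low (red) libraries, with circles, triangles and squares for replicates 1, 2 and 3 and a bar for the mean ± SD of each group. INSIG1, HMGCS1, INSIG2 and ACSS2 are higher in every low library, STARD4 overlaps, and EBP, ELOVL6 and PMVK are lower in every low library.

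The mevalonate steps showed no shared direction. Of the 7 enzymes, 4 had a positive and 3 a negative log2 fold change, the median was 0.27, and none had an adjusted p under 0.05. Of all genes tested, 45.2% were above 0 and 19.8% had an adjusted p under 0.05. The counts over 7 genes are given as a description. HMGCS1 (ENSG00000112972, GRCh37 chr5:43287572-43313614), which joins acetyl-CoA and acetoacetyl-CoA into HMG-CoA, had 24.3, 14.99 and 14.6 FPKM in the 3 high and 26.2, 32.3 and 31.99 FPKM in the 3 low libraries. Every low library was above every high library, with the smallest gap between both replicates numbered 1. The log2 fold change was 0.75 ± 0.23 (ratio of means 1.68, limma adjusted p = 0.0515), with 0.97 without high replicate 1 (adjusted p = 0.0396) and 0.63 without high replicate 3 (adjusted p = 0.202).

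PMVK (ENSG00000163344, GRCh37 chr1:154897216-154909195), which adds the second phosphate to mevalonate, was lower in the low libraries. It was at 6.97, 5.89 and 9.44 FPKM in high and 2.77, 4.51 and 5.04 FPKM in low libraries, and the groups were separate. These values rested on 32 to 102 reads, and the log2 fold change of -0.73 ± 0.23 had a limma adjusted p of 0.0585. The log2 fold change was -0.76 without high replicate 1 (adjusted p = 0.129), and the adjusted p reached 0.209 without high replicate 3. PMVK and HMGCS1 thus had differences of opposite sign within one pathway.

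MVD, which makes isopentenyl pyrophosphate, was at 8.57, 4.39 and 5.77 FPKM in high and 8.48, 9.91 and 9.50 FPKM in low libraries. Only high replicate 1 reached the low group, and the log2 fold change was 0.55 ± 0.22 (limma adjusted p = 0.122). MVK, the mevalonate kinase, was at 5.96 FPKM in high replicate 1 against 2.72 and 2.18 in the other high libraries, and between 3.58 and 5.81 in the low libraries. The isomerase IDI1 had a log2 fold change of 0.27 ± 0.26. The thiolase ACAT2 was at 65.4 ± 15.3 and 52.1 ± 11.2 FPKM with a log2 fold change of -0.32 ± 0.23. FDPS, which makes farnesyl pyrophosphate, was among the most abundant of these enzymes at 75.1 ± 9.55 and 71.0 ± 7.23 FPKM, with a 95% interval of -0.49 to 0.33 on the log2 scale.

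In the squalene-to-cholesterol path, 9 of 11 enzymes had a positive and 2 a negative log2 fold change, with a median of 0.29. Of all genes tested, 45.2% were above 0. The only enzyme of the 11 with an adjusted p under 0.05, against 19.8% of all genes, was on the lower side. EBP (ENSG00000147155, GRCh37 chrX:48380187-48387104), the sterol isomerase that moves the double bond of the B ring, had 49.99, 37.5 and 48.0 FPKM in the 3 high and 26.0, 23.7 and 31.7 FPKM in the 3 low libraries. All low libraries were below all high libraries, and a protein-coding gene overlaps EBP on the same strand. On the log2 scale EBP differed by -0.71 ± 0.20 (ratio of means 0.600, limma adjusted p = 0.0363), and the adjusted p was 0.167 without high replicate 1. Leaving out 1 library gave log2 fold changes of EBP between -0.84 and -0.63. HSD17B7, a sterol ketone reductase, also had separate groups, at 12.04, 7.39 and 8.27 FPKM in high and 5.72, 6.69 and 7.23 FPKM in low libraries. Its log2 fold change was -0.42 ± 0.21 (limma adjusted p = 0.191), and reads may be shared with its listed pseudogene HSD17B7P2.

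The other 9 enzymes were on the positive side. The largest of these differences was that of MSMO1, a C4 demethylase, at 43.2, 26.7 and 21.3 FPKM in high and 31.1, 50.6 and 56.4 FPKM in low libraries. Low replicate 1 lay within the range of the high group, and the log2 fold change was 0.60 ± 0.31 (limma adjusted p = 0.204). SQLE is an oxygenase of this path and a known control point of it. It was at 44.8, 32.9 and 33.8 FPKM in high and 39.2, 70.6 and 57.9 FPKM in low libraries. The log2 fold change of SQLE was 0.55 ± 0.25 (limma adjusted p = 0.154). The SQLE difference was 0.78 without low replicate 1 (adjusted p = 0.0147) and 0.36 without low replicate 2 (adjusted p = 0.413). NSDHL, of the same demethylation steps as MSMO1, was at 18.6 ± 2.57 and 26.6 ± 8.77 FPKM, with low replicate 1 at 16.5 FPKM and the other low libraries at 32.2 and 31.1. The same library was thus the lowest of its group for MSMO1, SQLE and NSDHL. It was the lowest for 20 of the 32 genes, against 57.0% of all genes tested.

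FDFT1, the squalene synthase, SC5D and CYP51A1, the lanosterol demethylase, had log2 fold changes of 0.39 ± 0.23, 0.37 ± 0.20 and 0.29 ± 0.22. DHCR7, which catalyses a last step to cholesterol, was at 0.26 ± 0.26. LSS, which closes the sterol rings, and TM7SF2, a C14 sterol reductase, were both at 0.12, with errors of 0.23 and 0.29. The limma adjusted p of these 6 enzymes ran from 0.244 for SC5D to 0.813 for TM7SF2, and their groups overlapped.

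**Figure D3:**
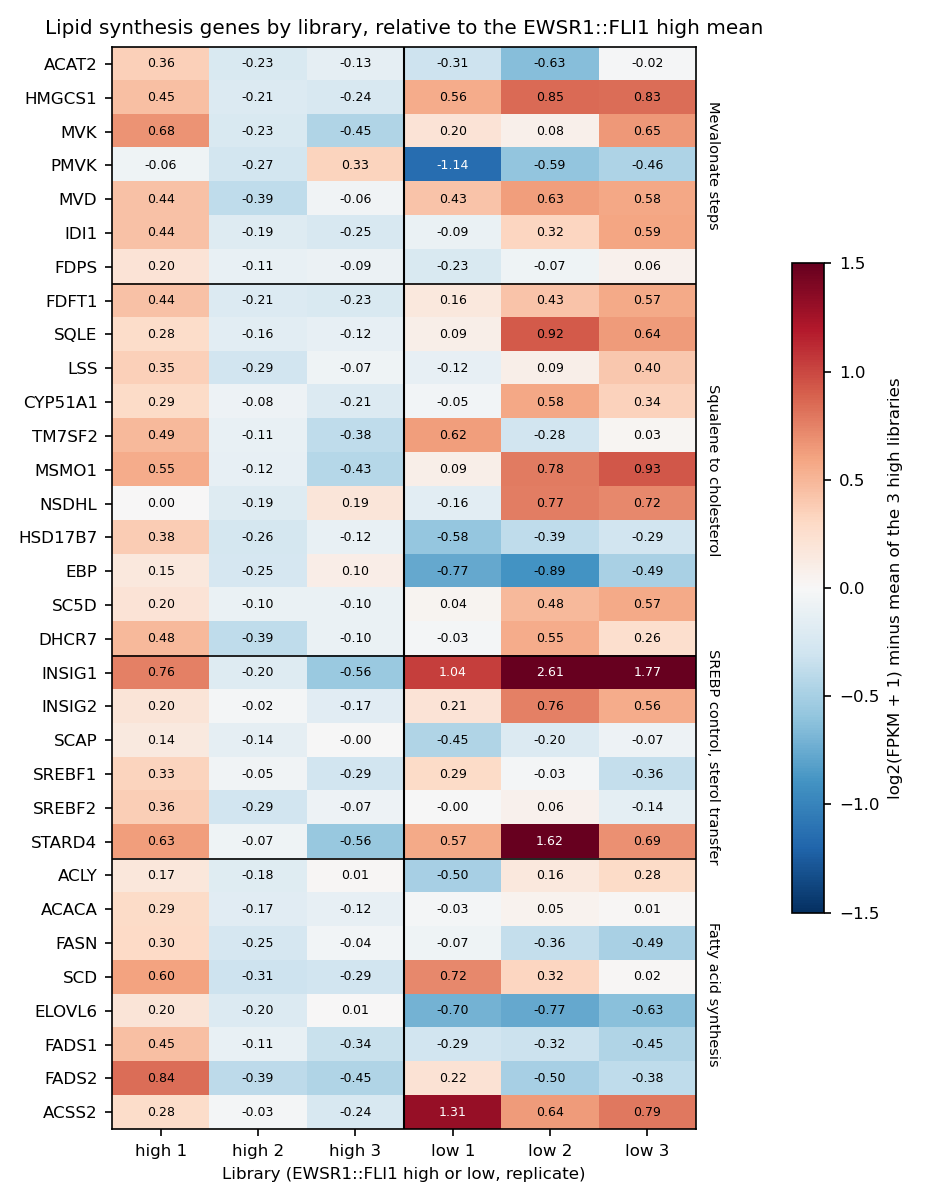
Each cell gives log2(FPKM + 1) of 1 of 32 lipid synthesis genes (y axis, grouped by role) in 1 library (x axis) minus the mean of the 3 EWSR1::FLI1 high libraries, with red for higher and blue for lower and colours that saturate at 1.5. The column of high replicate 1 is above 0 for nearly every gene, and the low columns are mixed, from 2.61 for INSIG1 in low replicate 2 to -1.14 for PMVK in low replicate 1.

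Fatty acid synthesis went in both directions, with 3 genes of 8 on the positive and 5 on the negative side and a median log2 fold change of -0.12. Of all genes tested, 45.2% were on the positive side. ACSS2 (ENSG00000131069, GRCh37 chr20:33459949-33515765), which makes acetyl-CoA from free acetate, had 2.86, 2.12 and 1.70 FPKM in the 3 high and 6.90, 3.97 and 4.52 FPKM in the 3 low libraries. The groups were separate, with the highest value in low replicate 1. The log2 fold change was 0.91 ± 0.22 (ratio of means 2.30, limma adjusted p = 0.0218). ACSS2 rested on 42 to 225 reads, and it overlaps GGT7, a gene on the opposite strand. The adjusted p stayed under 0.05 without high replicate 1 and was 0.097 without high replicate 3.

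ELOVL6 (ENSG00000170522, GRCh37 chr4:110967002-111120355), which elongates palmitate to stearate, was at 20.7, 15.5 and 18.1 FPKM in high and 10.6, 10.1 and 11.3 FPKM in low libraries. Every low library was below every high library, and the low libraries were close to each other. The log2 fold change was -0.70 ± 0.18 (ratio of means 0.591, limma adjusted p = 0.026), and the adjusted p was 0.143 without high replicate 1. Leaving out 1 library gave log2 fold changes of ELOVL6 between -0.80 and -0.60. SCD, the stearoyl-CoA desaturase that acts on the product of ELOVL6, had the most reads of the 32 genes and was at 110.7, 58.3 and 59.1 FPKM in high and 119.8, 90.7 and 73.5 FPKM in low libraries. High replicate 1 lay within the low group, and the log2 fold change was 0.35 ± 0.29 (limma adjusted p = 0.433).

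The core enzymes ACLY, ACACA and FASN make cytosolic acetyl-CoA, malonyl-CoA and palmitate in turn. ACLY was at 47.3 ± 5.86 and 47.8 ± 13.0 FPKM and ACACA at 6.43 ± 1.36 and 6.43 ± 0.209 FPKM. FASN was at 6.41, 4.05 and 4.84 FPKM in high and 4.75, 3.69 and 3.29 FPKM in low libraries. The 95% intervals of the log2 fold change were -0.56 to 0.53 for ACLY, -0.39 to 0.42 for ACACA and -0.76 to 0.15 for FASN. The data allow differences of these 3 enzymes within those bounds, in either direction.

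The desaturases FADS1 and FADS2, which make polyunsaturated fatty acids, overlap each other on opposite strands, and whether reads were counted by strand is not given in the sources used here. FADS1 was at 121.6, 82.4 and 70.2 FPKM in high and 72.5, 71.2 and 64.9 FPKM in low libraries, and FADS2 at 56.1, 23.4 and 22.4 FPKM and at 36.1, 21.7 and 23.6 FPKM. For both genes high replicate 1 was the highest of the 6 libraries. The ratio of FADS1 to FADS2 was between 2.17 and 3.52 in high and between 2.005 and 3.29 in low libraries (exact permutation test, two-sided p = 0.6).

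As a share of the summed FPKM of a library, the 32 genes took 0.323, 0.210 and 0.198% in EWSR1::FLI1 high and 0.323, 0.298 and 0.271% in low libraries. The groups overlapped through high replicate 1, with means of 0.244 ± 0.0689 and 0.297 ± 0.0259% (exact permutation test, two-sided p = 0.4). The difference of 0.0538 percentage points was 0.0934 without high replicate 1. Of the 4 roles, only SREBP control and sterol transfer had separate groups, at 0.0208, 0.0128 and 0.0104% in high and 0.0270, 0.0428 and 0.0248% in low libraries (exact p = 0.1, the smallest that 3 against 3 allows). That sum was carried by INSIG1, INSIG2 and STARD4, while SCAP, SREBF1 and SREBF2 had log2 fold changes below 0. Summed as FPKM, these 6 genes were slightly higher in high replicate 1 than in low replicate 1. The separation of the shares thus also rests on the summed FPKM of all genes, which differed between libraries. The mevalonate, sterol and fatty acid roles gave exact permutation p-values of 0.5, 0.3 and 0.6. Within the high libraries, the median of the 32 genes lay at the 66.3 percentile of all genes tested by FPKM, so that as a group they were well expressed in these cells.

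The departure of EWSR1::FLI1 high replicate 1 ran through all 4 roles. The ratio of its FPKM to the mean of high replicates 2 and 3 had a median of 1.51 over the 32 genes, against 0.962 over all genes tested. It was largest for FADS2, at 2.45, and was 2.44 for MVK, 2.31 for INSIG1 and 1.999 for STARD4. The exceptions were PMVK, with the smallest ratio of 0.909, and NSDHL, both highest in high replicate 3. FLI1 had a ratio of 0.843. A batch or date for that library was not given in the sources used here. Without high replicate 1, 24 of the 32 genes had a log2 fold change above 0 in place of 19, against 45.2% of all genes in both fits, and the median was 0.40 in place of 0.19. Without high replicate 2 the median was 0.07 and without high replicate 3 it was 0.09, with 17 of 32 above 0 in each case (44.5% and 46.5% of all genes).

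Several genes away from the 0.05 limit moved by over 1.5 times when high replicate 1 was left out, and none of those named next had an adjusted p under 0.05 in that limma fit. The log2 fold change was then 0.65 for MVK, 0.49 for IDI1, 0.61 for FDFT1, 0.30 for LSS, 0.37 for TM7SF2, 0.50 for DHCR7 and 0.65 for SCD, all larger than with it. It was nearer to 0 for ACAT2 (-0.14), HSD17B7 (-0.23), FASN (-0.16) and FADS1 (-0.13). ACACA was at 0.16, and FDPS, SREBF1, SREBF2, ACLY and FADS2 changed sign, to between 0.0231 for FDPS and 0.20 for FADS2. The difference of the log2 ratio of FADS1 to FADS2 was -0.34 in place of -0.13.

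**Figure D4:**
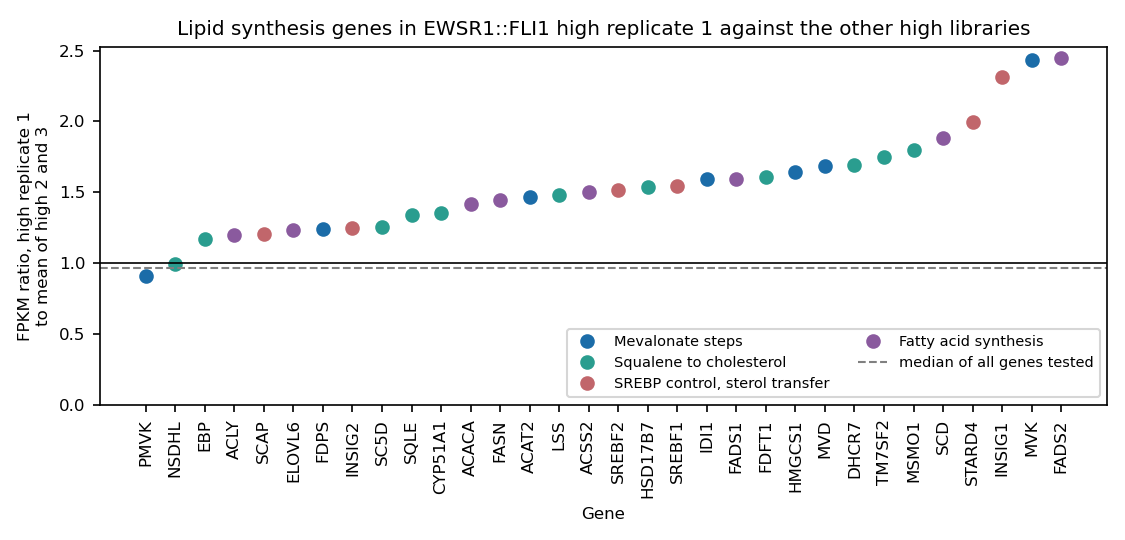
Each point is the FPKM of 1 lipid synthesis gene in EWSR1::FLI1 high replicate 1 divided by the mean of high replicates 2 and 3 (y axis, from 0), ordered by size along the x axis and coloured by role; the dashed line is the median of all genes tested, 0.962. All points but PMVK and NSDHL lie above 1, up to 2.45 for FADS2.

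Beside the 32 genes, 51 of 54 other genes of the same pathways passed the filter on low values. At an adjusted p under 0.01, 1 of the 51 was higher (ABCA1) and 1 lower (LBR), against 4.51% and 3.37% of all genes tested. At 0.05 there were 3 higher and 5 lower, against 9.87% and 9.91% of all genes. Of the 6 other sterol synthesis genes tested, LBR alone passed 0.01.

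LBR, the lamin B receptor, is an inner nuclear membrane protein that also acts as a C14 sterol reductase. It fell, from 79.6, 65.7 and 74.1 FPKM in the high to 32.1, 23.8 and 34.5 FPKM in the low libraries, without overlap. The log2 fold change was -1.27 ± 0.20 (ratio of means 0.412, limma adjusted p = 0.00331). The adjusted p was above 0.01, at up to 0.0242, when any 1 of the high libraries or low replicate 2 was left out.

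ABCA1, which exports cholesterol from the cell and is a known target of the LXR sterol receptors, rose. It was at 1.32, 0.932 and 0.406 FPKM in high and 5.38, 13.5 and 3.97 FPKM in low libraries, without overlap. Its log2 fold change was 2.06 ± 0.37 (ratio of means 8.62, limma adjusted p = 0.00616), and the adjusted p was up to 0.0324 with 1 high library left out. It was 1 of 7 tested genes of LXR and sterol export or esterification, and the other 6 did not pass 0.01. None of 14 other genes of SREBP processing or its targets and none of 24 other fatty acid genes passed 0.01 in limma. Of all genes tested, 7.88% did.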

How the data were processed

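RNA was extracted from 6 cultures, depleted of ribosomal RNA and made into ScriptSeq v2 libraries. Per the labels and the study's methods, the authors' reads were aligned to GRCh37 with STAR 2.5.0b, and bedtools 2.17.0, Cufflinks 2.2.1 and DESeq2 1.6.3 are named in the submitters' processing notes. The authors deposited FPKM per gene symbol and library. The authors also deposited a DESeq2 table whose mean normalized count, a signal over all 6 libraries, was used here only to recover whole reads. Its fold changes and p-values were not used.

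FPKM were tested as log2(FPKM + 1) with limma 3.58.1 in R 4.3.3 (trended empirical Bayes, Benjamini-Hochberg adjustment over 15504 genes with a mean of at least 0.5 FPKM, call at an adjusted p under 0.01). Ratios and shares were compared by two-sided exact permutation tests. Dividing the values by what 1 read is worth gave whole reads, within 0.1 reads, for 100% of values. A count of 3 reads, the limit that a count of 0 allows, corresponded to 0.0169 to 0.335 FPKM for these genes, counting error only. All 32 genes are named, with FLI1 and, of the other pathway lists, those with an adjusted p under 0.01; some genes that the rule also named are not reported here. The genes, lists and tests were chosen with earlier results of these data known. Of the 32 genes, 19 are overlapped by a gene on the opposite strand, 8 of them by a protein-coding one. A protein-coding gene on the same strand overlaps 4 of the 32, CYP51A1, TM7SF2, EBP and FADS2. Alternatives were another pseudocount, other filters, scalings and moderation, sample quality weights, a replicate block, limma-voom, and leaving out each library.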

Additional observations from a re-analysis of the deposited data

How the results depend on the processing

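Among 35 named genes and 15 alternative fits, 480 of 525 gene and setting pairs kept the direction and the side of the adjusted p of 0.01, 10 lost the call, 10 gained one and 25 changed sign, in 8 genes whose difference was not called. The number of lipid synthesis genes called higher was 0 in the limma fit given above, 1 with limma-voom on recovered reads (chosen after seeing the data), 1 with the replicate block, 5 with sample quality weights, 2 at an adjusted p under 0.05, and 0 to 1 with 1 library left out. The number called lower was 0, 2 with sample quality weights, 2 at an adjusted p under 0.05, and 0 in each fit with 1 library left out. Of all genes tested, 7.88% were called in either direction in that limma fit, 11.2% with limma-voom and 11.0% with the replicate block. The share was 30.6% with sample quality weights, 19.8% at an adjusted p under 0.05 and 14.0% without low replicate 1. EWSR1::FLI1 low replicate 1 had the lowest quality weight, 0.172, and leaving it out gave the 1 call, INSIG1. The cause was not tested. ABCA1 lost its call with no filter on low values (limma adjusted p = 0.0178), and under quantile normalization both ABCA1 (1.99) and LBR (-1.06) did.

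The changes of sign were of small differences. With median-ratio scaling the log2 fold change was 0.0096 for FDPS, 0.0392 for SREBF1, 0.0537 for SREBF2 and 0.0689 for ACLY. With quantile normalization it was 0.11 for FDPS, 0.0049 for SREBF2 and 0.17 for ACLY. With sample quality weights it was -0.30 for TM7SF2, 0.0021 for SREBF2 and 0.14 for ACLY. With 1 library left out it ranged from -0.15 to 0.0231 for FDPS, from -0.0184 to 0.30 for LSS, from -0.13 to 0.37 for TM7SF2 and from -0.20 to 0.13 for SREBF1. In the same fits it ranged from -0.17 to 0.16 for SREBF2, from -0.17 to 0.22 for ACLY, from -0.0685 to 0.16 for ACACA and from -0.44 to 0.20 for FADS2. The log2 ratio of SREBF1 to SREBF2 differed by -0.21 to 0.13 between groups, and that of FADS1 to FADS2 by -0.34 to 0.0602.

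Sample titles give high and low libraries the same experiment numbers, and what a number marks is not given in the sources used here. The deviations of same-numbered libraries from the group means correlated at 0.27, 0.09 and 0.12 over genes, against -0.29 to 0.19 for other pairs. With the replicate number as a block, ACSS2 had a limma adjusted p of 0.00644 and 11.0% of all genes were called in place of 7.88%. The limma-voom fit was run with the recovered size factors in place of TMM factors, which were not run. PMVK and ACSS2 rested on few reads, 32 to 102 and 42 to 225, and the part of depth in their differences was not tested.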

Other observations

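LBR and TM7SF2 encode enzymes known for the same C14 reduction of sterols, and the pair was chosen after their values were seen. The ratio of LBR to TM7SF2 FPKM was 6.56, 8.56 and 11.9 in the high group (replicates 1, 2 and 3) and 2.39, 3.55 and 4.04 in the low group. LBR was thus the more abundant of the pair in every library, by a smaller factor in the low libraries, and the difference of the log2 ratio was -1.43. TM7SF2 is overlapped by VPS51, a protein-coding gene on the same strand. FABP4, a fatty acid carrier and fat cell marker, was at 0.114, 0 and 0.308 FPKM in high and 0.268, 2.33 and 2.45 FPKM in low libraries, with low replicate 1 within the high group (limma adjusted p = 0.061). These values rested on 1, 0 and 2 reads in high and 2, 16 and 32 reads in low libraries. The other listed fat cell markers had overlapping groups, with means in high and low libraries of 0.194 and 0.283 FPKM for ADIPOQ and 0.190 and 0.248 for PLIN1.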
